A study of Mus musculus with 2 samples.

Results

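The 48 genes described here are the WNT ligands, receptors, antagonists and core signaling genes among the 14678 genes of the deposited table. They were chosen by symbol alone, as Wnt, Fzd, Sfrp, Dkk, Rspo and Dvl genes, Axin1, Axin2, Lgr4, Lgr5, Lgr6, genes whose symbol starts with Tcf7, and Wif1, Lef1, Ctnnb1, Lrp5, Lrp6 and Apc. Of these, 12 encode WNT ligands, 12 FZD or LRP receptors, 6 R-spondins or LGR receptors, 7 secreted antagonists, 7 cytoplasmic components and 4 transcription factors. Wnt1, Wnt3, Wnt3a, Wnt8a, Wnt8b, Wnt9b, Wnt10b, Rspo4, Dkk1 and Dkk4 were not analysed here.

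WNT proteins are secreted lipid-modified ligands that bind Frizzled receptors, encoded by the Fzd genes, together with the co-receptors LRP5 and LRP6. Receptor binding engages Dishevelled proteins, restrains the complex of Axin, APC and kinases that marks β-catenin (Ctnnb1) for degradation, and lets β-catenin enter the nucleus, where it acts with TCF and LEF1 transcription factors. R-spondins and their LGR receptors raise the amount of Frizzled at the cell surface, and the secreted SFRP and WIF1 proteins bind WNT ligands while DKK proteins act on the LRP co-receptors. In the mouse uterus Wnt7a is known for its expression in the luminal epithelium and its role in uterine patterning and gland formation, and Wnt4 for its role in decidualization of the stroma.

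Whole uteri of young adult littermates at gestation day 2.5 were compared. All mice carried tet operator sites in both copies of the Vegfa promoter and 1 copy of a transgene for the tetR-Krab repressor, given in the labels as VEGFtetO/tetO/beta-AKtg/wt. Dox+ mice ate doxycycline chow, which releases the repressor, and are labelled VEGF-normal, while Dox- mice, from which it had been withdrawn around weaning, ate chow without doxycycline and are labelled VEGF-repression. The β-actin promoter drives the repressor in all tissues, so repression was not limited to 1 cell type of the uterus and VEGF repression and the absence of doxycycline cannot be told apart. Total RNA of 3 uteri was pooled for each condition and 1 library was sequenced from each pool, so that no difference between Dox+ and Dox- has a replicate check and no test between conditions was possible.

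The deposited values are tags per gene, and the libraries held 5985925 (Dox+) and 5844315 (Dox-) clean tags, of which 74.1% and 72.2% were assigned to genes. TPM here are tags per 1000000 clean tags with no correction for length. A fold change is the ratio of a gene's tags per clean tag between the libraries, and its 95% interval is the exact Clopper-Pearson interval of the split of the gene's tags, which covers counting error only. Vegfa, the repressed gene, had 247 tags in Dox+ and 125 in Dox-, 1.93-fold lower (95% interval 1.55 to 2.41). Uterine identity genes were present in both libraries, as Hoxa10 had 3120 and 1060 tags and Hoxa11 2573 and 785. Marker lists of other compartments differed between the pools. Markers of uterine epithelium summed to 8275 tags in Dox+ and 12463 in Dox-, those of endothelium to 1917 and 1292, of smooth muscle to 49050 and 32047, of stroma to 60438 and 69928, and of leukocytes to 3960 and 6386. Single genes weighed heavily in 2 of these sums, Col1a1 with 23017 and 33696 of the stromal tags and Cd74 with 2742 and 4761 of the leukocyte tags. The median log2 ratio of the stromal genes was -0.25, against the direction of their sum. Because whole uteri were used, fewer cells of a type and less RNA per cell cannot be told apart in any of the results.

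The 5′ flanks of some of the genes that differed are shown first, because β-catenin acts through TCF and LEF1 sites in such regions. Windows of the RefSeq promoter table were used for 31 of the 48 genes, and the 250 bases before each start were searched on both strands for the core of the TCF/LEF motif, read as CTTTG followed by 2 bases that are each A or T. A match was found in 5 of the 31 genes (16.1%), compared with 12.7% of the genes of the whole table that had a window. The 5 genes were Fzd7, Lef1, Tcf7l2, Wnt11 and Wnt5b. Wif1, Lgr6, Wnt7a and Fzd10, which differed more than Wnt5b, had windows without a match and are not printed. The other windows of Wnt11, Wnt5b and Lef1 hold no match either. Windows with a match were favored for printing, so the sequences do not show how often genes that differed hold one. The sequences below were taken from the RefSeq table and placed by exact match on NCBIM37, the assembly also called mm9, and none of them overlaps an exon of the GENCODE annotation of that assembly. They are written 5′ to 3′ on the strand of the gene with matches to the motif in capitals. Wnt11 (chr7:105983372-105983621, plus strand), Wnt5b (chr6:119399405-119399654, minus strand, an inner start) and Lef1 (chr3:130858962-130859211, plus strand, an inner start) hold a match, and Lef1 at its first start (chr3:130812965-130813214, plus strand) and Sfrp2 (chr3:83569993-83570242, plus strand) hold none.
Wnt11: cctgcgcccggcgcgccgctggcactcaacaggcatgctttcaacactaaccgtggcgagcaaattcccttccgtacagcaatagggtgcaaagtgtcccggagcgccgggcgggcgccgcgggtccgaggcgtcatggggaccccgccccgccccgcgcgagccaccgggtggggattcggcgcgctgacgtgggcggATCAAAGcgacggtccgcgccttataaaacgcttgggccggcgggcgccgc
Wnt5b: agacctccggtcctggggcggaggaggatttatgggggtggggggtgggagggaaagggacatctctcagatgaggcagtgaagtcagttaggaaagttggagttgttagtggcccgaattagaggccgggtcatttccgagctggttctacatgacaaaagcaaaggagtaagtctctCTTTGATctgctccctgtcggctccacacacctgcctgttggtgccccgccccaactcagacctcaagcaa
Lef1 inner start: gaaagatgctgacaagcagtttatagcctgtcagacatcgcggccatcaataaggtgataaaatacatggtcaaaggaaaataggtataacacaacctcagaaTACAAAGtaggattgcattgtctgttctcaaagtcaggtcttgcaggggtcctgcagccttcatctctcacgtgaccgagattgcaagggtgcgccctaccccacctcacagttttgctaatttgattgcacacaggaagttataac
Lef1 first start: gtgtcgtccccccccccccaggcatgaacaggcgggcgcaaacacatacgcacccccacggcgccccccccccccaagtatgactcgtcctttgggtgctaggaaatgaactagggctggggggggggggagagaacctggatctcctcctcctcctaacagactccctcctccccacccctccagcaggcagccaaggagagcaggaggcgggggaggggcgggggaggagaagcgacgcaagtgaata
Sfrp2: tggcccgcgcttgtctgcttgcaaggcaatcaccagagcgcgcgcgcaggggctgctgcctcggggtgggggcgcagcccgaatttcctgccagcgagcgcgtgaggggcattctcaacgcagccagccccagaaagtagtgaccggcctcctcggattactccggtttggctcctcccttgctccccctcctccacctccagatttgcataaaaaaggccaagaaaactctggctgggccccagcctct
The match of Wnt11 began 51 bases before the start, that of Wnt5b 71 bases and that of Lef1 147 bases before its inner start. Of these genes Wnt11 and Lef1 were lower and Wnt5b was higher in Dox-. A match is a description of the letters and was not tested as a binding site, and the tags do not tell which start was used.

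Of the 48 genes, 20 had the combined 200 tags that the study required for a comparison, 20 had from 20 tags up to that minimum and 8 had fewer than 20. Among the first 20, 7 (35.0%) differed by at least 1.5-fold, with Wnt7a and Lrp5 higher and Lef1, Sfrp2, Fzd1, Fzd2 and Rspo1 lower in Dox-. Over all 6547 genes with that many tags 29.9% differed by as much, 15.2% higher and 14.7% lower, so the share among the WNT genes was near that of the table. At 2-fold 4 of the 20 passed, Wnt7a higher and Lef1, Sfrp2 and Fzd1 lower, where 10.2% of all genes did, 4.61% higher and 5.62% lower. The whole 95% interval lay past 1.5-fold for 5 of the 20, the same 4 and Fzd2, 1 higher and 4 lower, where it did for 15.1% of all genes, 7.21% higher and 7.87% lower. The median log2 ratio, Dox- over Dox+, was -0.30 for the 20 genes and 0.03 for all genes. Lef1, Wnt7a and Rspo1 had fewer than 100 tags in 1 library and passed the minimum largely through the other, where they were high. All 3 differed by at least 1.5-fold, while of the 17 genes with 100 or more tags in both libraries 4 did. Sfrp1 with 197 combined tags lay just under the minimum and Lef1 with 219 just above it.

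With a lower minimum of 20 combined tags, 40 WNT genes could be compared. Of these, 21 differed by at least 1.5-fold, 9 higher and 12 lower, where 38.4% of the 12079 genes with as many tags did, 19.7% higher and 18.7% lower. For 12 of the 40 the whole 95% interval lay beyond 1.5-fold, where it did for 14.8% of the 12079 genes. Wnt7a, Wnt5b, Wnt7b, Fzd10, Lgr6 and Wif1 were higher in Dox- by this rule, and Wnt11, Fzd1, Fzd2, Sfrp1, Sfrp2 and Lef1 were lower. Wif1, Lgr6, Wnt11 and Lef1 had fewer than 20 tags in 1 library and passed this minimum only through the other, where they were high. The share is therefore a description and not support for a difference. The intervals hold counting error alone, and the spread between pools is not known. The plot of levels sets the libraries side by side for all 48 genes, and the plot of ratios gives the intervals.

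**Figure D1:**
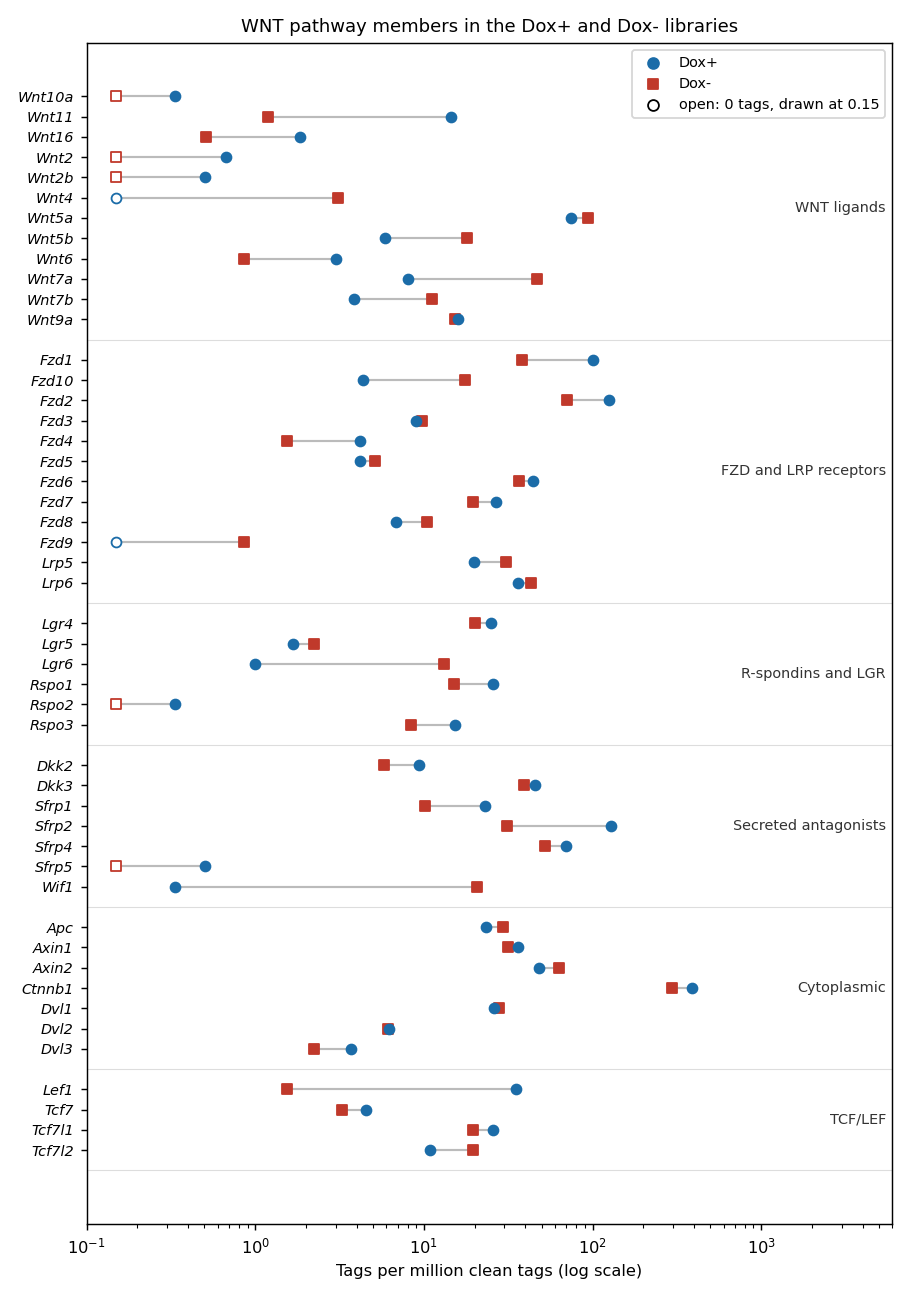
TPM, tags per 1000000 clean tags, on a log axis for each of the 48 genes, grouped by role, in the Dox+ library (circles) and the Dox- library (squares), 1 library each with no error bars, and with open symbols at 0.15 for genes at 0 tags. Lef1, Wnt11 and Sfrp2 sit far to the left in Dox-, Wif1, Lgr6 and Wnt7a far to the right, and Dvl1, Dvl2 and Wnt9a nearly coincide.

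Gene positions are those of the GENCODE annotation on NCBIM37. Among the ligands, Wnt7a (chromosome 6, 91313975 to 91361357) differed most of those with 200 tags. It had 48 tags in Dox+ and 273 in Dox-, or 8.02 and 46.7 TPM, and was 5.83-fold higher in Dox- (95% interval 4.27 to 8.09). Its close relative Wnt7b (chromosome 15, 85365869 to 85412251) had 23 and 65 tags, 2.90-fold higher (1.78 to 4.88). Both WNT7 ligands were thus higher in Dox-, together 71 tags against 338.

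Wnt5a, a ligand mainly of the β-catenin-independent branch, had 449 tags in Dox+ and 548 in Dox-, a ratio of 1.25 (1.10 to 1.42) that stayed under 1.5-fold. Wnt5b, its paralog (chromosome 6, 119382549 to 119494336), had 35 and 105 tags and was 3.07-fold higher in Dox- (2.08 to 4.64). The intervals of the ratios of Wnt5a and Wnt5b do not overlap. Wnt9a had 95 and 89 tags, a ratio of 0.96 with an interval from 0.71 to 1.30. A ratio of 1.5-fold lay outside this interval, which holds counting error alone.

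Wnt11 (chromosome 7, 105983622 to 106003705), another ligand of the β-catenin-independent branch, went the other way. It had 87 tags in Dox+ and 7 in Dox-, 12.1-fold lower (5.65 to 31.1). Wnt6 had 18 and 5 tags, 3.52-fold lower, but with an interval of 1.26 to 12.1 that begins below 1.5-fold. Wnt16 had 11 and 3 tags and its interval includes 1. Wnt6 and Wnt10a lie close together on chromosome 1, and Wnt10a had 2 tags in Dox+ and 0 in Dox-.

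Wnt4 (chromosome 4, 136833404 to 136855641) had 0 tags in Dox+ and 18 in Dox-. Set against the 3 tags that a count of 0 allows, the ratio was 6.15, which leaves out the counting error of the 18 tags, and the exact interval of the split began at 4.503. Wnt2 had 4 and 0 tags and Wnt2b 3 and 0, too few to compare. Tags seen only once were removed before counting, so a 0 here says that no tag of the gene was seen more than once.

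All ligands together had 775 tags in Dox+ and 1113 in Dox-, a ratio of 1.47 (1.34 to 1.61), and 727 and 840 without Wnt7a, a ratio of 1.18 (1.07 to 1.31). Per kilobase of transcript, Wnt5a had the highest level of the ligands in Dox+ with 10.7 TPM per kilobase (exact Poisson interval 9.74 to 11.7), above Wnt9a with 4.78 (3.87 to 5.84) and Wnt11 with 4.21 (3.37 to 5.20), whose intervals overlap each other. In Dox- Wnt7a stood at 14.7 (13.0 to 16.6) beside Wnt5a at 13.4 (12.3 to 14.6) on this scale, and these intervals overlap, while Wnt5b followed with 7.68 (6.28 to 9.30). Wnt7a thus stood behind Wnt9a and Wnt11 in Dox+, at 2.53 per kilobase (1.86 to 3.35), and beside Wnt5a in Dox-. If tags arise at 1 site per transcript, a level per kilobase understates long transcripts, and without it Wnt5a, at 93.8 TPM, stood above Wnt7a, at 46.7, in Dox-.

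The Frizzled receptors divided in their direction. Fzd2 and Fzd1 were the Frizzled genes with the most tags, and both were lower in Dox-. Fzd1 (chromosome 5, 4753842 to 4758216) had 603 tags in Dox+ and 224 in Dox-, 2.63-fold lower (2.25 to 3.08). Fzd2 (chromosome 11, 102465745 to 102469372) had 753 and 414 tags, 1.78-fold lower (1.57 to 2.01). These closely related receptors had intervals that do not overlap.

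Fzd7, the closest relative of Fzd1 and Fzd2, had 161 and 114 tags, 1.38-fold lower (1.08 to 1.77), and so did not pass 1.5-fold. Fzd6 had 264 and 213 tags, 1.21-fold lower (1.01 to 1.46). Fzd10 (chromosome 5, 129106719 to 129109968) went the other way, with 26 tags in Dox+ and 103 in Dox-, 4.06-fold higher (2.62 to 6.50). GENCODE also carries a pseudogene under the name Fzd10 inside the same interval.

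The remaining Frizzled genes had few tags. Fzd3 had 54 and 57, Fzd5 25 and 30 and Fzd8 41 and 61, and only for Fzd8, with a ratio of 1.52 (1.01 to 2.32), did the interval leave out 1. Fzd4 had 25 and 9 tags, 2.71-fold lower with an interval of 1.23 to 6.60. Fzd9 had 0 tags in Dox+ and 5 in Dox-. The 10 Frizzled genes together had 1952 and 1230 tags, 1.55-fold lower in Dox- (1.44 to 1.67). Most tags of this sum came from Fzd1, with 603 and 224, and Fzd2, with 753 and 414. The other Frizzled genes went both ways, so the sum does not describe the family as a whole.

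The co-receptor genes Lrp5 and Lrp6 both had ratios above 1. Lrp5 (chromosome 19, 3584825 to 3686564) had 118 tags in Dox+ and 180 in Dox-, 1.56-fold higher, with an interval of 1.23 to 1.99 that reaches below 1.5-fold. Lrp6 had 217 and 253 tags, a ratio of 1.19 (0.99 to 1.44).

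**Figure D2:**
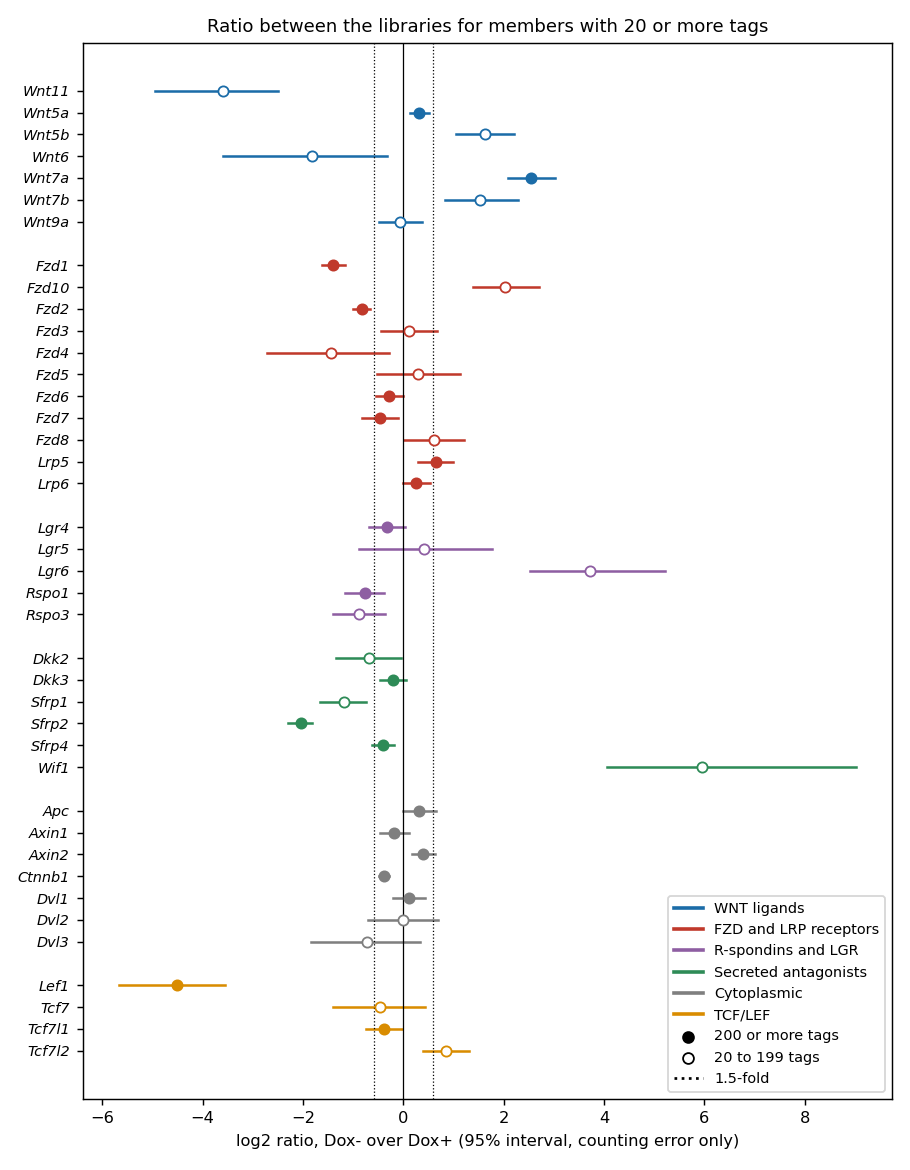
Log2 ratio, Dox- over Dox+, of the 40 WNT genes with 20 or more combined tags, with bars for the 95% interval of counting error, filled points for 200 or more tags and dotted lines at 1.5-fold. Wif1 at 5.95 and Lef1 at -4.51 lie at the ends, and the cytoplasmic genes cluster around 0.

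R-spondin genes were lower and Lgr6 higher in Dox-. Rspo1 (chromosome 4, 124663674 to 124686343) had 154 tags in Dox+ and 88 in Dox-, 1.71-fold lower (1.31 to 2.25). Rspo3 had 92 and 49 tags, 1.83-fold lower (1.28 to 2.65). For both genes the interval left out 1 but not 1.5-fold. Rspo2 had 2 and 0 tags. Summed, the R-spondin genes had 248 and 137 tags, 1.77-fold lower (1.43 to 2.19).

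Of the LGR receptors for R-spondins, Lgr6 (chromosome 1, 136882925 to 137001853) had 6 tags in Dox+ and 77 in Dox-, 13.1-fold higher (5.77 to 36.9). The interval is wide because of the 6 tags, but it lies above 1.5-fold throughout. Lgr4, with the most tags of the LGR genes, had 150 and 117, a ratio of 0.80 (0.62 to 1.02), and Lgr5, a marker of epithelial stem cells, had 10 and 13. The intervals of Lgr6 and of both other LGR genes do not overlap.

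Among genes with 20 or more tags, secreted antagonists had the widest range of ratios of any role. Wif1, the WNT inhibitory factor (chromosome 10, 120471016 to 120537706), had 2 tags in Dox+ and 121 in Dox-, a ratio of 62.0 with a counting interval from 16.8 to 518. Sfrp2 (chromosome 3, 83570243 to 83578238) had 771 and 182 tags and was 4.14-fold lower in Dox- (3.52 to 4.89). Sfrp2 was the most counted antagonist in Dox+, and in Dox- Sfrp4 with 305 tags and Dkk3 with 230 exceeded it in tags.

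Sfrp1 (chromosome 8, 24521974 to 24560104) had 138 and 59 tags, 2.28-fold lower (1.67 to 3.15), in the same direction as Sfrp2. Sfrp4 had 415 and 305 tags, 1.33-fold lower (1.14 to 1.55), and Sfrp5 had 3 and 0. The Sfrp genes summed to 1327 tags in Dox+ and 546 in Dox-, 2.37-fold lower (2.15 to 2.63). Of these tags 771 and 182 were from Sfrp2. Per kilobase of transcript, Sfrp2 had 64.3 TPM (59.9 to 69.0) in Dox+ and 15.6 in Dox-. Sfrp4 had 12.9 (11.5 to 14.4) in Dox- on this scale, and the intervals of both genes overlap there. Without the division by length Sfrp4, at 52.2 TPM, stood above Sfrp2, at 31.1, in Dox-.

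Dkk3, a divergent member of the Dickkopf family, had 272 and 230 tags, 1.16-fold lower with an interval that includes 1 (0.97 to 1.38). Dkk2 had 56 and 34 tags, 1.61-fold lower (1.03 to 2.54). All antagonists without Wif1 had 1655 tags in Dox+ and 810 in Dox-, 1.995-fold lower (1.83 to 2.17). Wif1 thus ran against the sum of the others, and it was left out after its values were seen. Sfrp2, with 771 and 182 tags, weighed heavily in this sum, while Sfrp4 and Dkk3 stayed within 1.5-fold.

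The cytoplasmic genes differed little. Ctnnb1 (chromosome 9, 120838334 to 120869625), with the most tags of all 48 genes, had 2319 in Dox+ and 1734 in Dox-, 1.31-fold lower with a narrow interval of 1.23 to 1.39. Axin2, a widely used readout of β-catenin activity, had 288 and 371 tags, a ratio of 1.32 (1.13 to 1.54). Axin1 had 215 and 185 tags and Apc 140 and 171, and the intervals of both include 1.

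Dvl1 had 155 and 164 tags, Dvl2 37 and 36 and Dvl3 22 and 13. None of the 5 cytoplasmic genes with 200 or more tags passed 1.5-fold, and of the 7 with 20 or more, Dvl3 alone did, at 1.65-fold lower with an interval that includes 1 (0.80 to 3.57).

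Among the transcription factors, Lef1 (chromosome 3, 130813389 to 130927274) had 210 tags in Dox+ and 9 in Dox-, 22.8-fold lower (11.8 to 50.5). Of the 20 genes with 200 or more tags it differed most. The related Tcf7 genes are given beside it. Tcf7 had 27 and 19 tags with an interval that includes 1, Tcf7l1 had 153 and 115, 1.30-fold lower (1.01 to 1.67), and Tcf7l2 had 65 and 114, 1.80-fold higher (1.31 to 2.48). The intervals of all 3 Tcf7 genes lie apart from that of Lef1. Summed, the Tcf7 genes had 245 and 248 tags, a ratio of 1.04 (0.87 to 1.24). Per kilobase, Lef1 in Dox+ stood at 10.1 TPM (8.76 to 11.5) beside Tcf7l1 at 8.40 (7.12 to 9.84), with overlapping intervals, and in Dox- at 0.44 (0.20 to 0.84), below each Tcf7l gene. Without the division by length, which does not suit tags that arise at 1 site per transcript, Lef1 stood at 35.1 TPM and Tcf7l1 at 25.6 in Dox+.

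**Figure D3:**
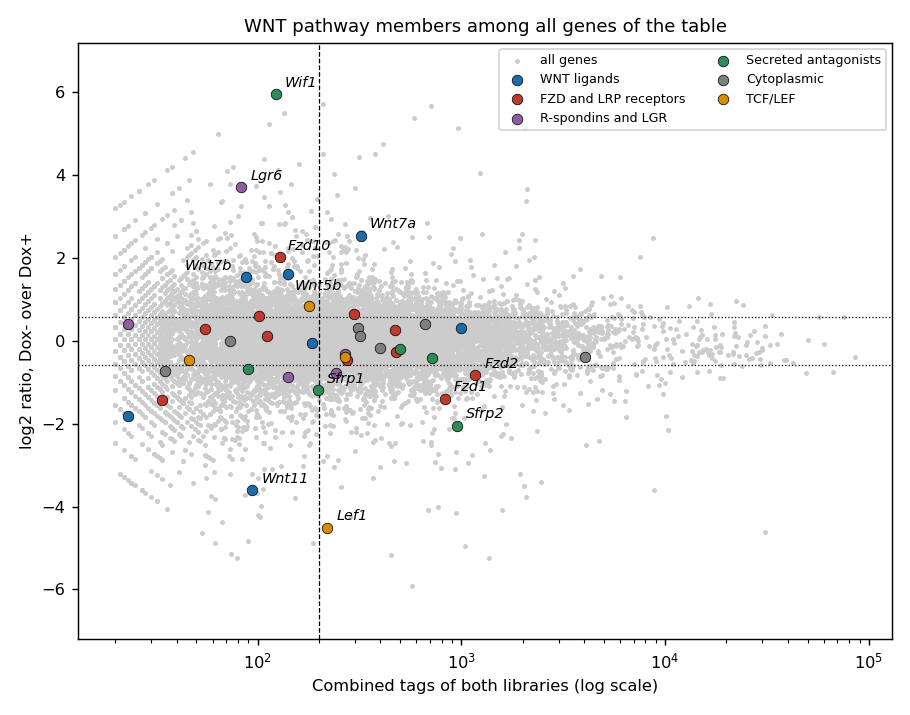
Log2 ratio, Dox- over Dox+, against the combined tags of both libraries (log axis) for the genes with 20 or more tags and at least 1 in each library, all genes in grey and WNT genes in color by role, with dotted lines at 1.5-fold and a dashed line at 200 tags. The 12 labelled WNT genes have whole intervals beyond 1.5-fold, with Wif1 at the top and Lef1 at the bottom.

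Other genes of the pathway were followed with 7 lists written by hand. The lists were written with earlier results of these data known, so their share beside that of all genes is a description only. Of 132 listed genes, 120 were in the table and 76 had 200 or more tags, and 29 of these (38.2%) differed by at least 1.5-fold, 15 higher and 14 lower in Dox-. Of all genes 29.9% did, 15.2% higher and 14.7% lower, and the counts of each list below stand beside these shares. Their median log2 ratio was -0.08. In each of the 7 lists at least as many genes stayed within 1.5-fold as passed it.

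For WNT secretion, Porcn, which attaches the lipid to WNT proteins, had 156 and 70 tags, 2.18-fold lower in Dox- (1.63 to 2.93), and Tmed5, a cargo receptor, had 100 and 173 tags, 1.77-fold higher (1.38 to 2.29). Wls, the carrier of WNT proteins to the cell surface, had 1367 and 1101 tags and Tmed2 1983 and 2308, both within 1.5-fold. The list summed to 3606 and 3652 tags.

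Among 6 co-receptor and receptor turnover genes with enough tags, Gpr124 and Reck were lower and none higher (33.3% past 1.5-fold, near the 29.9% of all genes). Gpr124 had 947 and 522 tags, 1.77-fold lower (1.59 to 1.98), and Reck had 240 and 124, 1.89-fold lower (1.52 to 2.37). Their proteins act together as receptor partners of WNT7A and WNT7B on brain endothelium, and here they were lower in the library in which Wnt7a and Wnt7b were higher. Of 6 endothelial markers with enough tags 4 were also lower in Dox-, where 14.7% of all genes were. None of the 13 listed was at 0 in either library, and their part in the result was not tested. Ryk, with 678 and 541 tags, and Mesdc2, with 346 and 430, had the most tags of the rest and stayed within 1.5-fold.

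Of 8 further modulators with enough tags, 3 were lower and none higher (37.5% past 1.5-fold, beside 29.9% of all genes). This list is named secreted modulators in the plot of the lists, but it also holds genes of membrane and cytoplasmic proteins, such as Kremen1, Sdc1, Dact2 and Dact3. Ndp, which encodes Norrin, a ligand of FZD4 that is not a WNT protein, had 271 tags in Dox+ and 14 in Dox-, 18.9-fold lower (11.1 to 35.0). The receptor genes of Norrin had low counts or differed less, with Fzd4 at 25 and 9 tags, its partner Tspan12 at 43 and 23 and Lrp5 at 118 and 180. Gpc3, a cell surface glypican, had 515 and 152 tags, 3.31-fold lower (2.76 to 3.99). Frzb, the Sfrp family member whose symbol falls outside the rule, had 157 and 78 tags, 1.97-fold lower (1.49 to 2.61), as Sfrp1 and Sfrp2 were. Igfbp4, with 6518 and 4357 tags, and Sdc1, with 1135 and 1578, had the most tags and did not pass 1.5-fold.

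In the destruction complex list 4 of 15 genes with enough tags were higher and 1 lower (33.3% past 1.5-fold, near the 29.9% of all genes). Cxxc5, an inhibitor of Dishevelled, had 78 and 201 tags, 2.64-fold higher (2.02 to 3.47), and Csnk1e, a casein kinase of the pathway, had 69 and 161, 2.39-fold higher (1.79 to 3.22). Tnks2, which promotes Axin turnover, had 461 and 707 tags, 1.57-fold higher, and Fbxw11, a ubiquitin ligase subunit for β-catenin, 160 and 239, 1.53-fold higher (1.25 to 1.88). Nkd1, a feedback inhibitor that binds Dishevelled, had 499 and 302, 1.61-fold lower. The kinases Gsk3a, with 279 and 347 tags, and Gsk3b, with 287 and 242, differed less. Ppp2r1a, a phosphatase subunit gene with 1627 and 1756 tags, and Csnk1d, with 857 and 629, had the most tags of the list and stayed within 1.5-fold.

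Of 16 nuclear partners of β-catenin with enough tags, 3 were lower and 2 higher (31.2% past 1.5-fold, near the 29.9% of all genes). Sox17, an endoderm factor that can bind β-catenin and is expressed in uterine epithelium and endothelium, had 1991 and 585 tags, 3.32-fold lower (3.03 to 3.65). Among the Groucho co-repressors, which bind TCF proteins, Tle1 had 197 and 87 tags, 2.21-fold lower (1.71 to 2.88), Tle3 had 173 and 271, 1.60-fold higher (1.32 to 1.95), and the short family member Aes had 2161 and 1377, 1.53-fold lower (1.43 to 1.64). Ruvbl2 had 366 and 591 tags, 1.65-fold higher (1.45 to 1.89). Ctbp1, with 2304 and 1864 tags, had the most and did not pass.

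In the planar cell polarity and calcium list 5 of 13 genes with enough tags were higher and 1 lower (46.2% past 1.5-fold, beside 29.9% of all genes). Rock1 had 111 and 262 tags, 2.42-fold higher (1.93 to 3.05), and Rock2 had 173 and 325, 1.92-fold higher (1.60 to 2.33), both kinases downstream of RhoA. Celsr2, a polarity cadherin, had 109 and 219 tags, 2.06-fold higher (1.63 to 2.61), and Prickle2 had 80 and 129, 1.65-fold higher. The calcineurin subunit genes Ppp3ca and Ppp3cb went opposite ways, with 171 and 107 tags and with 98 and 149. Rac1, with 1704 and 2412 tags, and Rhoa, with 1378 and 1630, had the most tags and stayed within 1.5-fold.

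In the list of widely used β-catenin target genes, 3 of 14 with enough tags were higher and 3 lower (42.9% past 1.5-fold, beside 29.9% of all genes). Mycn had 14 and 299 tags, 21.9-fold higher in Dox- (12.8 to 40.5), Sox9 had 51 and 220, 4.42-fold higher (3.25 to 6.12), and Birc5, a mitotic gene, 184 and 404, 2.25-fold higher (1.88 to 2.69). Msx1, a homeobox gene of uterine receptivity, had 1757 and 727 tags, 2.36-fold lower (2.16 to 2.58), Id2 had 1933 and 888, 2.13-fold lower (1.96 to 2.30), and Cd44 had 1078 and 633, 1.66-fold lower (1.51 to 1.84). Myc, with 495 and 398 tags, and Ccnd1, with 912 and 806, stayed within 1.5-fold, as Axin2 did. Several of these genes also have other regulators. The split depends on how the list was drawn, as Lef1, Nkd1 and Axin2 were counted in other groups and not here.

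**Figure D4:**
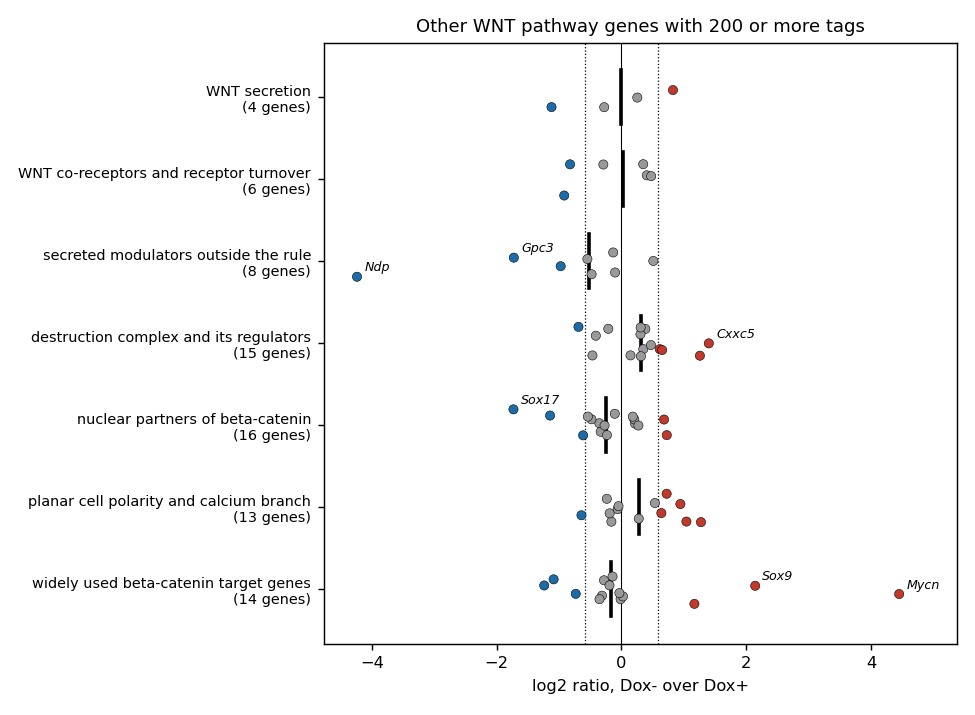
Log2 ratio, Dox- over Dox+, of the other WNT pathway genes with 200 or more tags, 1 point a gene, in 7 lists with the median as a vertical bar, dotted lines at 1.5-fold, red for higher and blue for lower in Dox- past 1.5-fold, and a small vertical jitter for display. Ndp at -4.24 and Mycn at 4.45 lie farthest out, and the 7 medians lie between -0.51 and 0.31.

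The GO column of the table, used as a list after the data had been seen, assigns 161 genes to Wnt receptor signaling, of which 44 are among the 48 genes. Of the 117 others, 65 had 200 or more tags, and 18 of these (27.7%) passed 1.5-fold, 8 higher and 10 lower, close to the 29.9% of all genes.

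Markers of the uterine compartments differed between the pools and are given beside the WNT genes. Of all genes with 200 or more tags, 15.2% were higher and 14.7% lower in Dox- by at least 1.5-fold. Of 14 epithelial markers with enough tags, 7 were higher and 2 lower in Dox-, with Prom1 at 152 and 831 tags, Elf3 at 185 and 1083 and Krt7 at 179 and 600, while Krt8 and Cdh1 stayed within 1.5-fold at 1330 and 1481 and at 703 and 909. Cldn3, with 1482 and 494 tags, and Cldn4, with 149 and 65, were the lower epithelial genes. The epithelial sum was 1.54-fold higher in Dox-, with single markers from 6.00-fold higher (Elf3) to 2.93-fold lower (Cldn3). Wnt7a, an epithelial ligand, was 5.83-fold higher. Of 12 stromal markers 2 were higher and 4 lower, with Hand2 at 985 and 143 tags, Hoxa10 and Hoxa11 lower and Col1a2 at 4793 and 9627 higher. Of 10 smooth muscle markers 6 were lower and none higher, and the sum was 1.49-fold lower (1.47 to 1.52). Of 6 leukocyte markers with enough tags 2 were higher, and the sum was 1.65-fold higher (1.59 to 1.72). Most tags of that sum came from Cd74, with 2742 and 4761, while Csf1r, with 186 and 181, and Tyrobp, with 211 and 158, stayed within 1.5-fold. Of adipocyte markers 2 of 4 were lower and the sum was 1.43-fold lower, and both skeletal muscle genes with enough tags, Acta1 and Tnni2, were lower. Markers of oviduct and ovary had 40 and 42 tags in all, with Ovgp1 at 25 and 2 and Foxj1, a gene of ciliated cells, at 3 and 25, and the 7 listed genes of the preimplantation embryo were not analysed here. No listed marker in the table other than Inha of the ovary was at 0 in Dox+, and none in Dox-. The part of these compartment differences in the WNT genes was not tested.

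**Figure D5:**
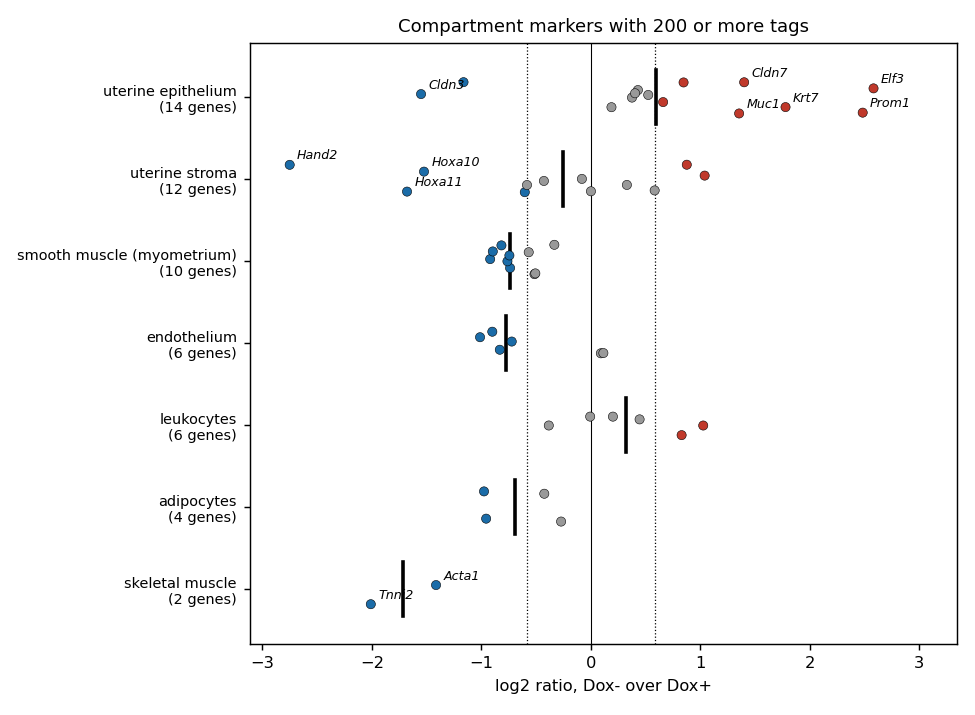
Log2 ratio, Dox- over Dox+, of compartment markers with 200 or more tags, 1 point a gene, with the median of each list as a vertical bar, dotted lines at 1.5-fold, red for higher and blue for lower in Dox- past 1.5-fold, and a small vertical jitter for display. Smooth muscle genes lie left of 0 throughout, and epithelial genes lie mostly right of it with Cldn3 and Cldn4 as exceptions.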

How the data were processed

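Tags of 1 library per condition, each from a pool of 3 uteri (6 µg of total RNA), were analysed. Tags consisting of adaptor, of low quality or seen once were removed by the authors, the rest were matched to mouse reference transcripts of mm9, and tags matching a single gene were summed. The deposited counts are these tags per gene without normalization. The deposited TPM values are tags per 1000000 clean tags as computed by the authors, without a length correction and with 0.01 at a count of 0, and they gave the library sizes used here. Columns of ratios, P-values and FDR computed by the authors were not used. Sense and antisense tags were both searched by the authors, and the enzyme, the aligner and whether the counts hold antisense tags are not given in the sources used here. The labels mention mRNA fragmentation while the study describes tag profiling, so that levels between genes were compared per kilobase as well, by the longest GENCODE transcript of a gene.

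Genes with 200 or more combined tags were called past 1.5-fold, with a count of 3 or fewer set to 3 for the call. Printed ratios with 1 to 3 tags were left unchanged with their interval, and a 0 was set to 3. Single-copy removal makes intervals of low counts approximate. With 1 library per condition no P-value was computed between conditions, and the Audic-Claverie test of the study and edgeR with an assumed variation served as alternatives that give counts of calls. The genes and lists were chosen with earlier results of these data known. All 48 genes are accounted for, and of each of the 7 other pathway lists the genes past 1.5-fold with 200 or more tags and the 2 with the most tags are named. Marker lists are given by sums and counts, the marker and further pathway genes named were chosen after their values were seen, and genes known from the GO column alone are given by counts. The 5′ flanks printed were also chosen after the values were seen. The methods were tested on simulated data. Python 3.11.15, numpy 2.4.6, scipy 1.17.1, pandas 2.3.3, matplotlib 3.10.9, R 4.3.3 and edgeR 4.0.16 were used.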

Additional observations from a re-analysis of the deposited data

How the results depend on the processing

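With the sum of gene tags, TMM or median-ratio factors in place of clean tags, and with a pseudocount of 1, all 80 recomputed log2 ratios of the 20 WNT genes stayed within their counting intervals and none changed sign. The scalings moved all log2 ratios by the same amounts, 0.04, -0.02 and -0.03, and a pseudocount of 1 matters little at 200 or more tags. The 80 values are therefore not separate checks. The same 7 genes passed 1.5-fold under each of the 3 scalings. The median log2 ratio lay between -0.38 (mean in place of median) and -0.18 (100 or more tags). The filter, the fold and an assumed variation moved the counts. WNT genes past 1.5-fold numbered 14 of 29 (7 higher) from 100 tags, 21 of 40 (9 higher, 12 lower) from 20 tags and 24 of 48 (11 higher, 13 lower) without a filter, beside 32.2%, 38.4% and 38.8% of all genes. At 2-fold 4 of 20 passed (1 higher, 3 lower), beside 10.2% of all genes. When the whole interval had to lie past 1.5-fold 1 gene was higher, beside 7.21% of all genes. With edgeR and an assumed coefficient of variation of 0.2, 4 of 20 were called (1 higher, 3 lower), namely Wnt7a, Fzd1, Sfrp2 and Lef1, beside 4.90% of all genes, and with 0.4, 1 of 20 was called lower, Lef1, and 0 higher, beside 0.504% of all genes. The Audic-Claverie test called the same 7 as the fold of 1.5, beside 36.6% of all genes. Of the other pathway genes, 48 of 114 (26 lower) passed from 20 tags and 52 of 120 (24 higher, 28 lower) without a filter, beside 38.4% and 38.8% of all genes. Of the 76 with 200 or more tags, 14 passed at 2-fold (7 higher, 7 lower), beside 10.2% of all genes. By the whole interval 18 of the 76 passed (8 higher), beside 15.1%. With a coefficient of variation of 0.2, 6 of the 76 were called (3 higher, 3 lower), beside 4.90%, and with 0.4, 2 (1 higher, 1 lower), beside 0.504%. The spread between pools is not known, and a fold near 1.5, as of Lrp5 and Rspo1, rests on fewer than 200 tags in each library. No paired analysis was possible because each condition has 1 library.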
